A study of Mus musculus with 8 samples.

Results

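The genes described here are the tumour suppressor gene *Trp53*, 7 of its regulators and targets (*Mdm2*, *Cdkn1a*, *Ccng1*, *Bbc3*, *Phlda3*, *Sesn2* and *Trp53inp1*) and the INK4 genes *Cdkn2a* and *Cdkn2b*. They were taken by gene symbol, from a list drawn up with earlier results of these data known. All 10 were found among the 18990 genes of the table, and all 10 were among the 13866 genes that were tested, those whose mean over the 8 libraries reached 1 CPM (a gene's reads scaled to a common library size).

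RNA-seq was carried out on primary mouse embryonic fibroblasts (MEFs) from wild-type C57BL/6 mice, labelled as passage 2, that were on their way to induced pluripotent stem cells (iPSCs). Every culture had been transduced with lentiviruses carrying the doxycycline-inducible tet-STEMCCA cassette, which encodes OCT4, SOX2, KLF4 and c-MYC (OSKM), and the transactivator rtTA, and every culture was grown in doxycycline medium with a GSK3 inhibitor (Chiron), a TGFb receptor inhibitor (Alk5i), ascorbic acid and LIF. What differed was the siRNA pool, directed at *Ncor1*, which encodes a transcriptional corepressor, or at *Oct4* (*Pou5f1*), and the day of harvest, day 3 or day 6. There were 4 groups of 2 libraries, labelled as biological replicates. No untreated or non-targeting library was analysed here, so each comparison sets one knockdown against the other or one day against the other.

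p53 is a transcription factor that is kept scarce by MDM2, a ubiquitin ligase whose own gene is a p53 target. When p53 is stabilised by DNA damage or oncogenic stress, it activates genes that stop the cell cycle or start apoptosis. The *Cdkn2a* locus adds another brake. It encodes p16INK4a, which inhibits the cyclin D kinases CDK4 and CDK6, and in another reading frame p19ARF, which blocks MDM2. Its neighbour *Cdkn2b* encodes p15INK4b, another inhibitor of the same kinases. In fibroblasts these genes are known for enforcing senescence in culture and for limiting how many cells give rise to iPSC colonies.

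The libraries held between 7735742 and 16445192 reads on genes, and the 10 genes were covered by between 135 (*Bbc3*) and 14524 (*Ccng1*) reads in a library. In the siRNA targets, the knockdowns were seen only in part. *Ncor1* was at 7.08 and 7.20 log2 CPM in the siNcor1 libraries of day 3, below the 7.82 and 7.94 of the libraries labelled siOct4, but at day 6 the ranges overlapped (7.26 and 7.28 against 7.33 and 7.13). *Pou5f1*, which the cassette also encodes, was not called at day 3 (log2 difference −0.08, 95% interval −0.42 to 0.27). At day 6 *Pou5f1* was 1.78 ± 0.16 (SE) log2 units higher in the libraries labelled siOct4, against the label, and *Myc*, which the same cassette encodes, was 1.59 ± 0.16 higher. For this reason these are called libraries labelled siOct4 throughout. The fibroblast markers *Col1a1*, *Col3a1* and *Thy1* and the other 7 on a list of 10 were detected in every group.

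*Cdkn2a* and *Cdkn2b* lie beside each other on mouse chromosome 4 (GRCm38, GENCODE M21), both on the minus strand. *Cdkn2a* spans chr4:89274471-89294653 and *Cdkn2b* chr4:89306299-89311039, with 11645 bases between them. RefSeq gives *Cdkn2a* a pair of start sites that are 12427 bases apart. The upstream start gives the transcript of p19ARF and the downstream start that of p16INK4a. The table has 1 value per gene, so the *Cdkn2a* value below sums both transcripts and cannot be split. No run of 43 bases, the read length, is shared between the annotated transcripts of *Cdkn2a* and *Cdkn2b* or between either of them and another gene. The 60 bases just before each start (RefSeq, GRCm38.p6, minus strand, 5′ to 3′) are shown because they show 3 separate promoters behind the 2 values.
Cdkn2b, chr4:89311033-89311092: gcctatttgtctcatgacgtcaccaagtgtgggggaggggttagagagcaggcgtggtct
Cdkn2a, upstream start, chr4:89294620-89294679: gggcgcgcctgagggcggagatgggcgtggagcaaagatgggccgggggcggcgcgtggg
Cdkn2a, downstream start, chr4:89282193-89282252: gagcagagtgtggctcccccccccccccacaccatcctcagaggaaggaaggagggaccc

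The other genes lie apart from each other, with *Trp53* and *Ccng1* on chromosome 11, *Cdkn1a* on 17, *Mdm2* on 10, *Bbc3* on 7, *Phlda3* on 1, and *Sesn2* and *Trp53inp1* on 4 at a distance from the INK4 genes. Their promoters were searched for the letters of the p53 response element, 2 directly adjoining repeats of 10 bases that read the same on both strands, in the 300 bases from 250 before to 50 after each RefSeq start. A window was found for 9 of the 10 genes, without *Trp53inp1*. The closest match had 1 mismatch of 20 in *Cdkn1a*, at the upstream one of its RefSeq starts, and in *Ccng1*. It had 3 mismatches in *Bbc3* and in *Trp53* itself, and 5 or 6 in *Cdkn2a*, *Cdkn2b*, *Mdm2*, *Phlda3* and *Sesn2*. Of all 32544 windows, 0.0891% held a match with at most 1 mismatch and 6.3% one with at most 3. The matches of up to 3 mismatches are shown with 20 bases on each side and the matched letters in capitals (RefSeq, GRCm38.p6, 5′ to 3′ on the gene's strand). That of *Rps27l*, a p53 target outside the 10 genes with 1 mismatch, was picked because its values stand out below. *Zfp365*, another such target, had 2 mismatches and is not shown.
Cdkn1a, chr17:29090908-29090967, plus strand: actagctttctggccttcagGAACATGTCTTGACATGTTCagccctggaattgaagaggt
Ccng1, chr11:40755442-40755501, minus strand: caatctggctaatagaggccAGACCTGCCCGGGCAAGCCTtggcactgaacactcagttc
Bbc3, chr7:16309466-16309525, plus strand: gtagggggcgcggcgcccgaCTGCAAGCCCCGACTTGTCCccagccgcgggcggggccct
Trp53, chr11:69580264-69580323, plus strand: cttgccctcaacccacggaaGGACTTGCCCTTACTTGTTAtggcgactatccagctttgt
Rps27l, chr9:66946276-66946335, plus strand: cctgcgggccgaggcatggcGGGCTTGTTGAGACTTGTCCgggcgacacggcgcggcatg
A match of letters is not a measured binding site, and sites outside these windows, such as in introns, were not searched.

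Per length of exon, *Ccng1*, *Phlda3* and *Cdkn1a* were the most abundant of the 10 genes, above *Trp53* in every library. The geometric mean over the 8 libraries was 221 CPM per kb for *Ccng1*, 162 for *Phlda3* and 132 for *Cdkn1a*, and the lowest *Cdkn1a* library (113) was above the highest library of the next gene. *Cdkn2a* followed at 57.3 CPM per kb and ranged widely, from 32.3 to 90.4. *Mdm2* and *Cdkn2b* (both 41.5), *Sesn2* (40.4), *Trp53* (31.6) and *Trp53inp1* (27.0) had overlapping ranges. *Bbc3*, which encodes the pro-apoptotic protein PUMA, was lowest at 12.7 CPM per kb. Only between *Cdkn1a* and *Cdkn2a* did neighbours in this order not overlap over the 8 libraries.

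**Figure D1:**
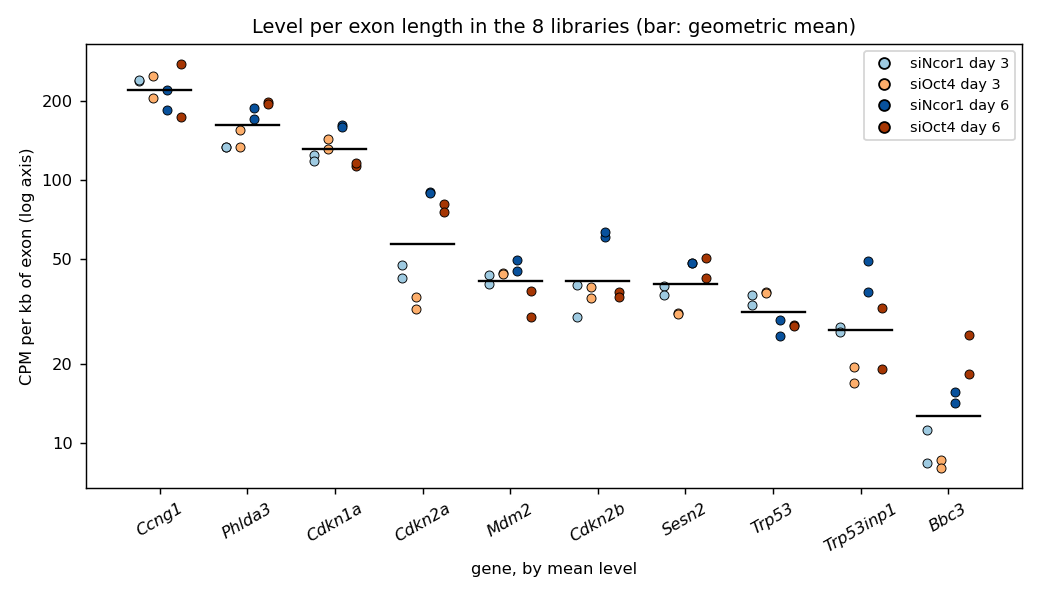
Level of each gene in CPM per kb of annotated exon, on a log axis, in each of the 8 libraries, coloured by group, with the geometric mean as a bar. *Ccng1*, *Phlda3* and *Cdkn1a* lie above 100 CPM per kb in every library, and *Cdkn2a* and *Bbc3* show the day 6 libraries above the day 3 libraries.

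Each comparison was made with limma, on log2-cpm as deposited and over all tested genes, in 1 fit of the 4 groups, and was called at an adjusted p (Benjamini-Hochberg) under 0.05. With 2 libraries a group, the p-values rest on a spread shared over the 4 groups. From day 3 to day 6 in the siNcor1 libraries, 7 of the 10 genes rose (*Cdkn1a*, *Cdkn2a*, *Cdkn2b*, *Bbc3*, *Phlda3*, *Sesn2* and *Trp53inp1*), where 13.8% of all tested genes were called higher, and 1 fell (*Trp53*), where 20.9% were called lower. In the libraries labelled siOct4, 4 rose over the same days (*Cdkn2a*, *Bbc3*, *Phlda3* and *Sesn2*), against 22.2% of all tested genes, and 2 fell (*Trp53* and *Mdm2*), against 30.5%. The median log2 difference of the 10 genes was 0.41 in siNcor1 and 0.21 for the siOct4 label, beside −0.07 and −0.08 for all tested genes.

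Between the knockdowns, limma called 0 of the 10 genes at day 3, with 3 at an unadjusted p under 0.05 (*Cdkn2a*, *Sesn2* and *Trp53inp1*, all lower in the libraries labelled siOct4), and limma-voom on the recovered reads also called 0. Few genes were called at that day, 1.07% of those tested. At day 6, 4 of the 10 were lower in the libraries labelled siOct4 (*Cdkn1a*, *Cdkn2b*, *Mdm2* and *Trp53inp1*), where 18.6% of all tested genes were lower, and 1 was higher (*Bbc3*), where 12.1% were higher. The difference between the knockdowns changed from day 3 to day 6 for 3 genes, downwards in each (*Cdkn1a*, *Cdkn2b* and *Mdm2*), where 12.9% of all tested genes were called lower and 7.77% higher. This change is an interaction, the log2 difference at day 6 less that at day 3.

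Other features of the libraries moved with the same groups. The summed level of 10 fibroblast markers was 4550 to 4930 CPM at day 6 in siNcor1 and 2510 to 2680 CPM in those labelled siOct4, after 6270 to 6400 and 8810 to 10400 CPM at day 3. At day 6, 7 of the 10 were lower in the libraries labelled siOct4 (70%, against 18.6% of all tested genes). Over the days in siNcor1, however, 6 of the 10 were called higher (60%, against 13.8% of all tested genes). In the same libraries 2 were lower (*Col1a1* and *Col1a2*, 20%, against 20.9%). The median log2 difference was 0.71, so the sum there fell while most of its members rose. In the libraries labelled siOct4, 2 were higher (20%, against 22.2%) and 5 lower (50%, against 30.5%) over the days (median −0.27). The sum of 5 epithelial markers was 639 to 673 CPM at day 6 in siNcor1 and 270 to 298 CPM in those labelled siOct4, and at most 55.0 CPM in any day 3 library. Macrophage markers summed to at most 14.7 CPM, and their defining members *Ptprc* and *Aif1* had no value. Endothelial markers summed to 40.8 to 44.4 CPM at day 3 and 16.4 to 20.9 CPM at day 6 over the groups, with *Emcn* at or under 3 reads throughout. In skeletal muscle markers *Myod1*, *Myog* and *Ckm* had no value, and the sum was 15.3 to 90.0 CPM. Neural markers, without a value for *Gfap*, summed to 58.8 to 73.7 CPM at day 3 and 44.5 to 47.6 CPM at day 6 in siNcor1. In the libraries labelled siOct4 their sum was higher at both days, at 89.8 to 90.9 CPM and then 111 to 126 CPM. The gene model *Gm26917* alone took 15.5 to 16.6% of reads on genes at day 3 and 20.3 to 29.1% at day 6, and what its reads come from was not tested. The part of any of these in the results here was not tested, and in bulk RNA fewer cells of a type and less RNA per cell cannot be told apart.

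**Figure D2:**
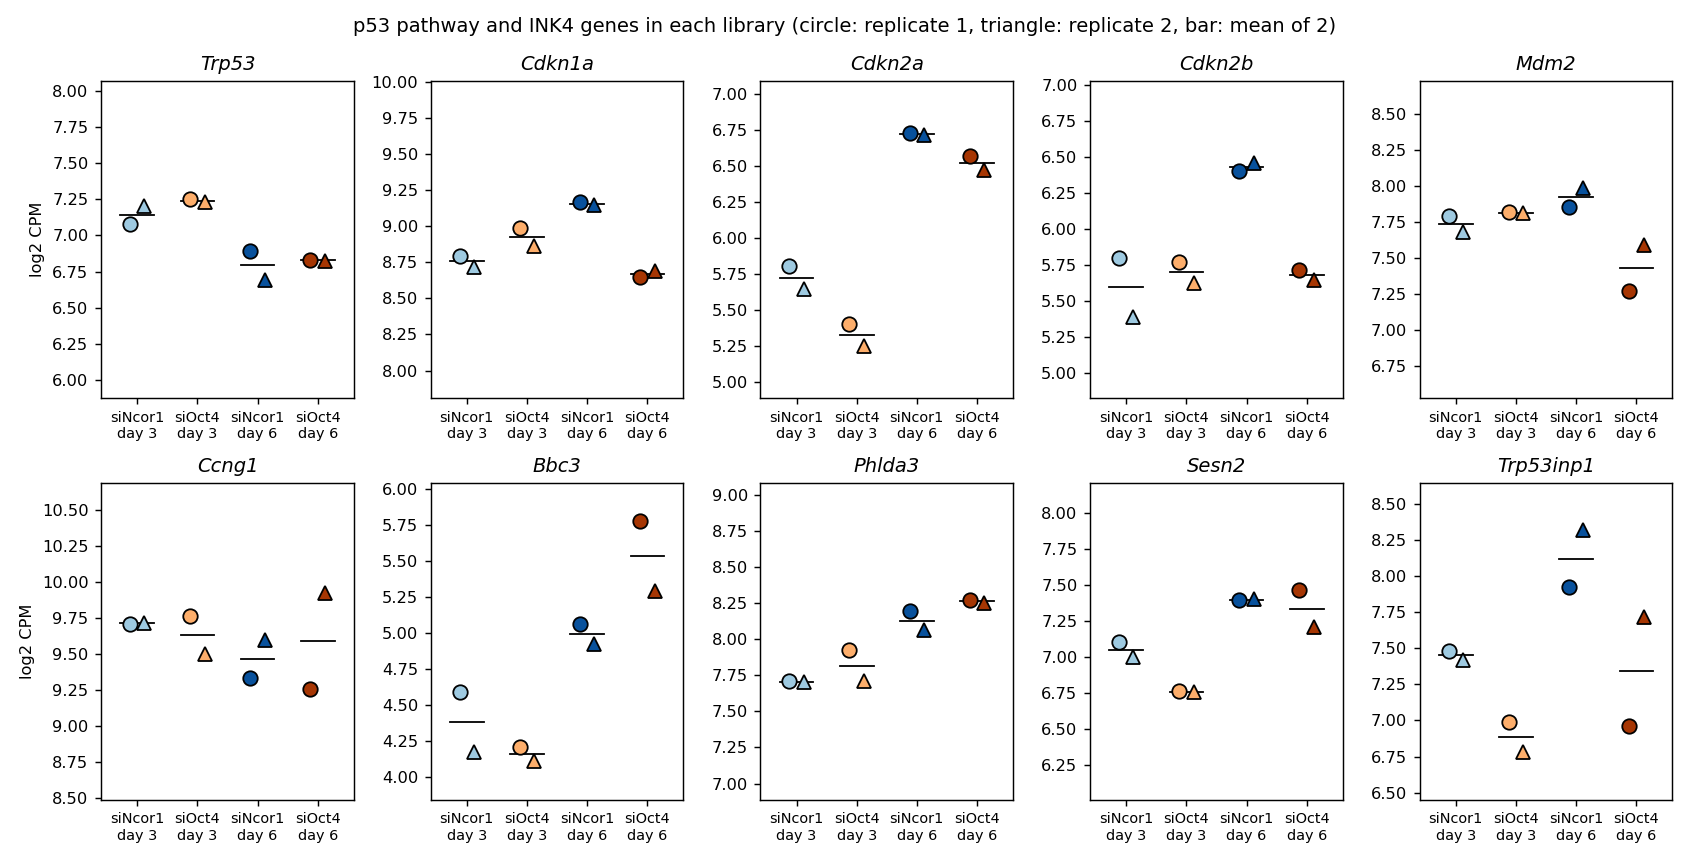
log2 CPM of the 10 genes in each library, 1 gene a panel, with the groups on the horizontal axis, circles and triangles for replicates 1 and 2 and a bar for their mean. All panels span the same range. In *Cdkn2b* and *Cdkn1a* the siNcor1 libraries of day 6 stand above all others, and in *Cdkn2a* the 4 day 6 libraries stand above the 4 day 3 libraries.

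*Cdkn2a* was the gene of the locus that rose under both knockdowns. It was at 5.80 and 5.64 log2 CPM in the siNcor1 libraries of day 3 and at 6.73 and 6.72 at day 6. Those labelled siOct4 had 5.40 and 5.25 at day 3 and 6.57 and 6.47 at day 6. Every day 6 library was above every day 3 library. The rise was 2.00-fold in siNcor1 (log2 1.00 ± 0.12 SE, adjusted p = 0.000139) and 2.29-fold in the libraries labelled siOct4 (log2 1.20 ± 0.12, adjusted p = 1.17e-05). These calls held in every alternative processing and without any 1 library. The rises did not differ detectably between the knockdowns (interaction 0.20, 95% interval −0.18 to 0.57). The libraries labelled siOct4 were lower at both days without overlap (log2 difference −0.40 ± 0.12 at day 3 and −0.20 ± 0.12 at day 6), and neither difference was called (adjusted p = 0.185 and 0.224).

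*Cdkn2b*, its neighbour, rose in the siNcor1 libraries and did not pass the test in those labelled siOct4. It was at 5.80 and 5.39 log2 CPM in siNcor1 at day 3 and at 6.40 and 6.46 at day 6. The libraries labelled siOct4 had 5.77 and 5.63 at day 3 and 5.71 and 5.65 at day 6. The siNcor1 libraries of day 6 thus stood alone above the other 6. The rise in siNcor1 was 1.79-fold (log2 0.84 ± 0.14, adjusted p = 0.00121), and at day 6 the libraries labelled siOct4 were at 0.594 times the siNcor1 level (log2 −0.75 ± 0.14, adjusted p = 0.00308). Both calls held in every alternative and without any 1 library. Over the days in the libraries labelled siOct4, the log2 difference was −0.02 (95% interval −0.33 to 0.29), and its sign turned under other scalings. The interaction was −0.86 ± 0.20 (adjusted p = 0.0133), and it was not called without siNcor1 replicate 2 of day 3 (adjusted p = 0.0687) or of day 6 (0.0626), nor with a fit that gave the variance no trend over the mean (0.0502).

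The ratio of *Cdkn2a* to *Cdkn2b* therefore differed between the groups. Per kb of exon, *Cdkn2a* was at 0.92 and 0.91 times the level of *Cdkn2b* in the libraries labelled siOct4 at day 3 and at 2.15 and 2.09 times at day 6. In the siNcor1 libraries the ratio was 1.19 and 1.41 at day 3 and 1.49 and 1.41 at day 6. The ratio in the libraries labelled siOct4 lay below that of siNcor1 at day 3 and above it at day 6, without overlap at either day. The ratio was computed after the values of both genes were seen, and it has no test of its own. As the *Cdkn2a* value sums the transcripts of p19ARF and p16INK4a, the ratio is not one of INK4 transcripts alone.

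*Trp53* was lower at day 6 than at day 3 under both knockdowns. It was at 7.08 and 7.21 log2 CPM in siNcor1 at day 3 and at 6.89 and 6.69 at day 6. Those labelled siOct4 held 7.25 and 7.23 at day 3 and 6.83 and 6.82 at day 6. No day 6 library reached a day 3 library. The log2 difference was −0.35 ± 0.12 in siNcor1 (adjusted p = 0.0359) and −0.42 ± 0.12 in the libraries labelled siOct4 (adjusted p = 0.0103). Both calls depended on the scaling. With quantile normalization the differences were −0.16 (adjusted p = 0.312) and −0.19 (0.199), and with library totals that left out *Gm26917* they were −0.27 (0.0925) and −0.28 (0.0635). In siNcor1 the call was also lost under median centring (0.0614), without the trend (0.0818), without either day 3 library of siNcor1 (0.0665 and 0.202) or of the libraries labelled siOct4 (0.0563 and 0.0567), and without either siNcor1 library of day 6 (0.0626 and 0.266). In those labelled siOct4 the call was lost without either day 3 library (0.054 and 0.0515). Between the knockdowns *Trp53* differed by 0.10 (95% interval −0.16 to 0.35) at day 3 and 0.03 (−0.22 to 0.29) at day 6, and neither passed the test. Of the 43-base runs in its transcripts, 5.76% also occur in other genes, most of them in the pseudogene *Trp53-ps*, so its level is uncertain to that extent.

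The library totals include *Gm26917*, so the scale was also computed from plain totals without it. The deposited values rest on effective library sizes, at 0.951 to 1.05 times the totals. The alternative drops these factors as well as *Gm26917*, and the part of each in its results was not tested. For day 6 against day 3 in the libraries labelled siOct4, the median log2 difference of all tested genes was −0.08 as deposited and 0.06 with totals that left out *Gm26917*, and with quantile normalization it was −0.027. Relative to that median, *Trp53* was at −0.34 as deposited, −0.33 with the other totals and −0.16 with quantile normalization, and *Mdm2* at −0.31, −0.30 and −0.11. In the same order *Cdkn2a* was higher by 1.27, 1.28 and 1.42, *Bbc3* by 1.46, 1.46 and 1.52, *Sesn2* by 0.66, 0.66 and 0.84, and *Phlda3* by 0.52, 0.53 and 0.68.

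*Mdm2* is both the inhibitor of p53 and one of its targets. It was at 7.79 and 7.68 log2 CPM in siNcor1 at day 3 and at 7.85 and 7.99 at day 6. Both libraries labelled siOct4 had 7.81 at day 3, and they had 7.26 and 7.59 at day 6. The libraries labelled siOct4 of day 6 were below the other 6. They were at 0.712 times the siNcor1 level of that day (log2 −0.49 ± 0.13, adjusted p = 0.0158) and at 0.766 times their own day 3 level (log2 −0.38 ± 0.13, adjusted p = 0.0273), and the interaction was −0.57 ± 0.19 (adjusted p = 0.0499). Over the days in siNcor1 the log2 difference was 0.18 ± 0.13 and was not called (adjusted p = 0.311). It passed the test with quantile normalization (0.36, adjusted p = 0.0445). The calls above were weak. The difference at day 6 was lost without siNcor1 replicate 2 (0.143) or labelled siOct4 replicate 1 (0.0707) of that day, without the trend (0.0533) and with only those groups fitted (0.0518). The fall over the days was lost without either day 3 library (0.0955 and 0.0985) or replicate 1 of day 6 (log2 −0.22, adjusted p = 0.165), without the trend (0.0679), with only those groups fitted (0.0756) and under median centring (0.0527), quantile normalization (log2 −0.13, adjusted p = 0.411) and totals without *Gm26917* (log2 −0.25, adjusted p = 0.119). The interaction was lost without any of 7 libraries (adjusted p 0.0806 to 0.191), all but labelled siOct4 replicate 2 of day 6, and in 5 other alternatives (0.0501 to 0.115).

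*Cdkn1a* encodes p21, the inhibitor of cyclin-dependent kinases through which p53 halts the cell cycle. It was at 8.80 and 8.72 log2 CPM in siNcor1 at day 3 and at 9.17 and 9.15 at day 6. Under the siOct4 label the values were 8.99 and 8.86 at day 3 and 8.65 and 8.69 at day 6. So it was highest in the siNcor1 libraries of day 6 and lowest in those labelled siOct4 of that day, and the order of the knockdowns turned between the days. The rise in siNcor1 was 1.32-fold (log2 0.40 ± 0.12, adjusted p = 0.0224). The log2 difference over the days in the libraries labelled siOct4 was −0.26 (95% interval −0.52 to 0.003) and was not called (adjusted p = 0.0894). At day 6 the libraries labelled siOct4 were at 0.711 times the siNcor1 level (log2 −0.49 ± 0.12, adjusted p = 0.0105), and the interaction was −0.66 ± 0.17 (adjusted p = 0.0196).

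The *Cdkn1a* calls kept their direction in every alternative, but each needed both siNcor1 libraries of day 6. Without replicate 1 or 2 of these, the adjusted p was 0.0683 and 0.0795 for the difference at day 6, 0.131 and 0.103 for the rise in siNcor1, and 0.0702 and 0.0806 for the interaction. The rise was also lost without either siNcor1 library of day 3 (0.0654 and 0.138), and the interaction without siNcor1 replicate 2 (0.0932) or labelled siOct4 replicate 1 (0.0638) of day 3. The exons of *Cdkn1a* overlap those of the antisense gene model AC167363.2. Whether the reads were counted by strand is not given in the sources used here, so reads of these gene models cannot be told apart. Of its 43-base runs, 8.88% occur in another gene model, most of them in that one.

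*Bbc3* had the largest rise of the 10 genes in the libraries labelled siOct4. It was at 4.59 and 4.17 log2 CPM in siNcor1 at day 3 and at 5.06 and 4.92 at day 6. Those labelled siOct4 had 4.20 and 4.11 at day 3 and 5.78 and 5.29 at day 6. Every day 6 library was above every day 3 library, and the libraries labelled siOct4 were highest at day 6. The rise there was 2.60-fold (log2 1.38 ± 0.19, adjusted p = 9.2e-05), which held in every alternative. In siNcor1 it was 1.53-fold (log2 0.61 ± 0.19, adjusted p = 0.0245), which was lost without siNcor1 replicate 2 of day 3 (log2 0.40, adjusted p = 0.227), without replicate 1 or 2 of day 6 (0.144 and 0.0661) and without the trend (0.0665). The difference at day 6 (log2 0.54 ± 0.19, adjusted p = 0.0444) was lost without any of 5 libraries, namely those labelled siOct4 of day 3 (0.0601 and 0.0603), those of siNcor1 of day 6 (0.0956 and 0.228) and labelled siOct4 replicate 1 of day 6 (log2 0.30, adjusted p = 0.238), and also without the trend (0.0985), without the filter on low values (0.0568) and with only those groups fitted (0.0663). The interaction, 0.77 ± 0.26, missed the threshold (adjusted p = 0.0579). It passed under 3 other scalings (0.0385 to 0.0473) and with a block for the replicate numbers (0.02). Without labelled siOct4 replicate 2 of day 6 it was 1.01. At day 6 *Bbc3* was thus called in the direction opposite to *Cdkn1a* and *Mdm2*.

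*Phlda3*, whose product restrains AKT signalling, and *Sesn2*, which encodes a stress-induced inhibitor of mTORC1 signalling, rose over the days under both knockdowns. *Phlda3* was at 7.71 and 7.70 log2 CPM in siNcor1 at day 3 and at 8.20 and 8.06 at day 6, and in the libraries labelled siOct4 at 7.93 and 7.71 and then at 8.27 and 8.25. *Sesn2* was at 7.10 and 7.0 and then at 7.39 and 7.40 in siNcor1, and under the siOct4 label at 6.76 and 6.75 and then at 7.46 and 7.21. For both genes every day 6 library was above every day 3 library. *Phlda3* rose 1.34-fold in siNcor1 (log2 0.42 ± 0.12, adjusted p = 0.0176) and 1.36-fold in the libraries labelled siOct4 (log2 0.45 ± 0.12, adjusted p = 0.00853). *Sesn2* rose 1.27-fold in siNcor1 (log2 0.35 ± 0.12, adjusted p = 0.0425) and 1.49-fold in the libraries labelled siOct4 (log2 0.58 ± 0.12, adjusted p = 0.00177), the latter in every alternative. The interaction was 0.02 (95% interval −0.35 to 0.39) for *Phlda3* and 0.23 (−0.14 to 0.60) for *Sesn2*, and neither passed the test.

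The siNcor1 calls of both genes were lost without any 1 of the 4 siNcor1 libraries, with an adjusted p from 0.0521 to 0.152 for *Phlda3* and from 0.0851 to 0.213 for *Sesn2*. That of *Sesn2* was also lost without either library labelled siOct4 of day 3 (0.064 and 0.0643), without the trend (0.0938) and without the filter (0.0536). The *Phlda3* call in the libraries labelled siOct4 was lost without their replicate 2 of day 3 (0.0956). The gene model *Gm12981* lies within *Sesn2* on the same strand with no shared exon and had at most 57 reads in a library.

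*Trp53inp1*, whose product promotes p53 activity and autophagy under stress, was lower in the libraries labelled siOct4 at both days. It was at 7.48 and 7.42 log2 CPM in siNcor1 at day 3 and at 7.92 and 8.32 at day 6. Those labelled siOct4 were at 6.99 and 6.78 at day 3 and at 6.96 and 7.72 at day 6. The groups did not overlap within a day, but labelled siOct4 replicate 1 of day 6 had stayed within the range of day 3. At day 6 these libraries were at 0.582 times the siNcor1 level (log2 −0.78 ± 0.21, adjusted p = 0.0164), and at day 3 the log2 difference was −0.57 ± 0.21 (adjusted p = 0.302). The call at day 6 was lost without siNcor1 replicate 2 (log2 −0.58, adjusted p = 0.16) or labelled siOct4 replicate 1 (log2 −0.40, adjusted p = 0.0807) of that day, and without the trend (0.0676). The day 3 difference passed the test without either library labelled siOct4 of day 6 (0.0404 for each) and with only those groups fitted (0.0344). In siNcor1 *Trp53inp1* rose 1.59-fold over the days (log2 0.67 ± 0.21, adjusted p = 0.0283), which was lost without replicate 1 or 2 of day 3 (0.102 and 0.149), without replicate 2 of day 6 (0.208) and without the trend (0.0931). Over the days in the libraries labelled siOct4 the log2 difference was 0.46 ± 0.21 (adjusted p = 0.0883), and it passed the test under 3 other scalings (0.0116 to 0.0335) and without replicate 1 of day 6 (log2 0.84, adjusted p = 0.00104).

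*Ccng1*, which encodes cyclin G1, was the most abundant of the 10 genes per length and passed the test in no comparison. It was at 9.71 and 9.72 log2 CPM in siNcor1 at day 3 and at 9.34 and 9.60 at day 6. The libraries labelled siOct4 were at 9.77 and 9.50 and then at 9.26 and 9.92. The libraries labelled siOct4 of day 6 held both the lowest and the highest value. The 95% intervals of its log2 differences ran from −0.32 to 0.56 at day 6 between the knockdowns and from −0.69 to 0.19 over the days in siNcor1.

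**Figure D3:**
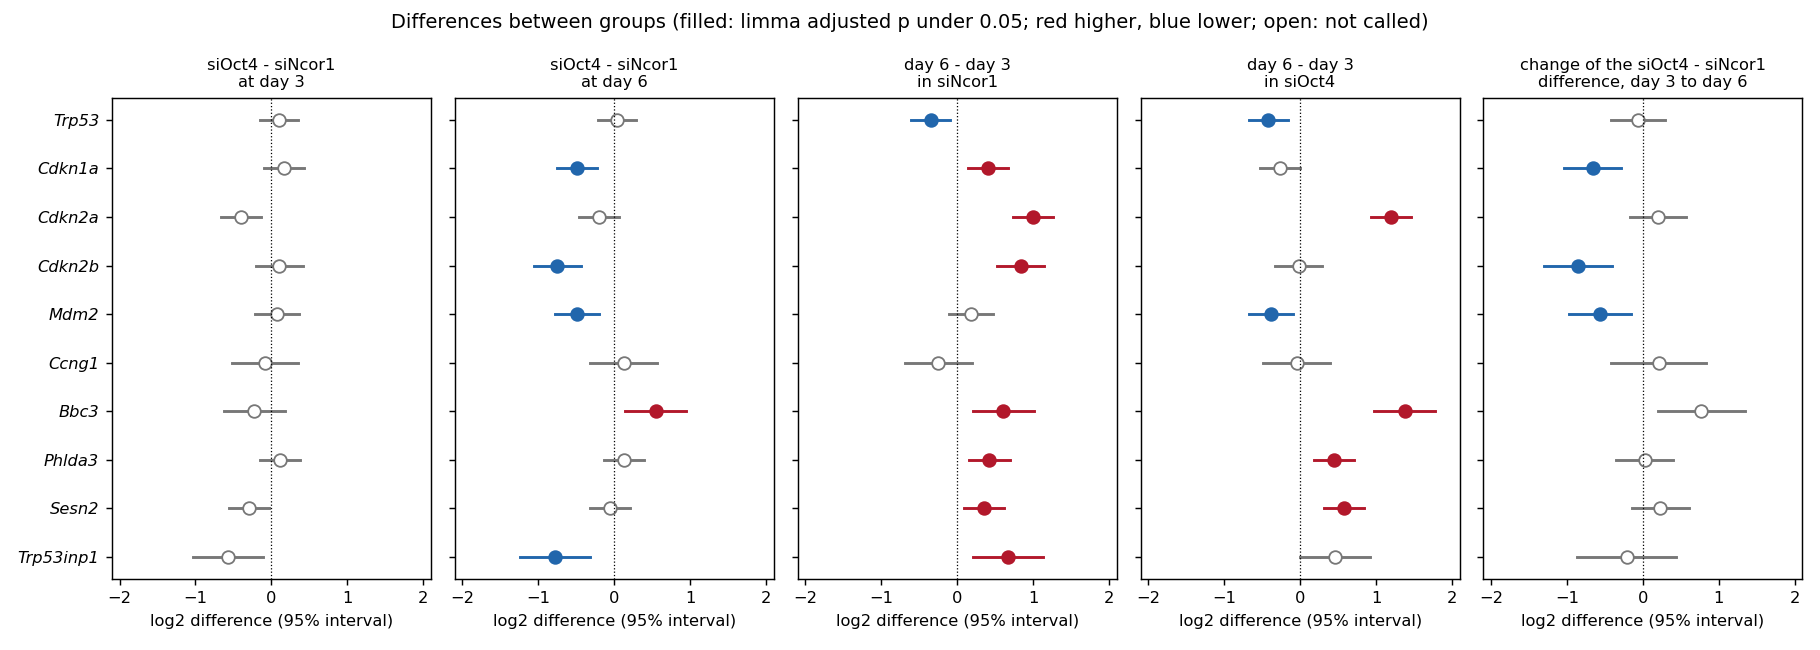
log2 differences of the 10 genes in the 5 comparisons, with limma's 95% intervals. Filled points passed the test (red higher, blue lower) and open points did not. *Cdkn2a* lies near 1 over the days under both knockdowns, and *Cdkn2b* and *Cdkn1a* lie above 0 in siNcor1 and at or below it in the libraries labelled siOct4.

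Among 30 further p53 target genes, no common direction was seen. From day 3 to day 6, 9 rose and 4 fell in siNcor1, and 9 rose and 6 fell in the libraries labelled siOct4. The risers were 30% of the list in each, against 13.8% and 22.2% of all tested genes, and the fallers 13.3% and 20%, against 20.9% and 30.5%. In siNcor1 the largest rises were those of *Ptprv* (log2 1.51 ± 0.19, adjusted p = 0.000182) and *Plk3*, a stress-responsive kinase (1.18 ± 0.16, adjusted p = 0.000337). *Apaf1*, the apoptosome scaffold, fell (−0.49 ± 0.16, adjusted p = 0.0293), as did *Zfp365* (−0.47 ± 0.12, adjusted p = 0.011). Largest in the libraries labelled siOct4 were the rises of *Rps27l* (1.63 ± 0.17, adjusted p = 1.34e-05) and *Bax*, an effector of apoptosis that acts with PUMA (1.12 ± 0.14, adjusted p = 6.1e-05), and *Ptprv*, *Plk3*, *Rps27l* and *Bax* were called higher under both knockdowns, while the death receptor gene *Fas* fell (−1.07 ± 0.26, adjusted p = 0.00463) and *Apaf1* too (−0.56 ± 0.16, adjusted p = 0.00998). The falls depended on the scaling. With quantile normalization 11 rose in both knockdowns, and of the fallers 0 stayed called in siNcor1 (as against 4 with limma-voom on the recovered reads) and 2 in the libraries labelled siOct4. The list median was −0.02 in siNcor1 and 0.02 for the siOct4 label, near the medians of all tested genes.

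Between the knockdowns at day 6, the libraries labelled siOct4 had 4 of these 30 targets higher and 8 lower, beside 12.1% and 18.6% of all tested genes. Those higher were *Bax* (0.52), *Ppm1d* (0.44), *Rps27l* (0.86 ± 0.17, adjusted p = 0.00329) and *Tigar*, a regulator of glycolysis (0.57 ± 0.15, adjusted p = 0.0155). *Btg2*, an antiproliferative gene (−0.68 ± 0.11, adjusted p = 0.00141), and *Plk3* (−0.65 ± 0.16, adjusted p = 0.0116) had the largest negative differences. At day 3 only *Perp*, which encodes a membrane protein of desmosomes, was called (−0.86 ± 0.13, adjusted p = 0.00953), and it was lower in the libraries labelled siOct4. In the interaction *Rps27l* (1.08 ± 0.24, adjusted p = 0.00905) and *Tigar* (0.76 ± 0.21, adjusted p = 0.0292) were the ones called, both higher. They were 6.67% of the list, against 7.77% of all tested genes called higher, and 0 were lower, against 12.9%. Of the 23 of these genes with a promoter window, 8 held letters of the p53 response element with at most 3 mismatches, as did 4 of the 9 above. Over all 26742 genes with a window the share was 7.22%, beside 34.8% and 44.4% here. Most of these genes were listed because they are known p53 targets, and the 4 include *Trp53* itself. The shares are therefore a description and not a test.

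**Figure D4:**
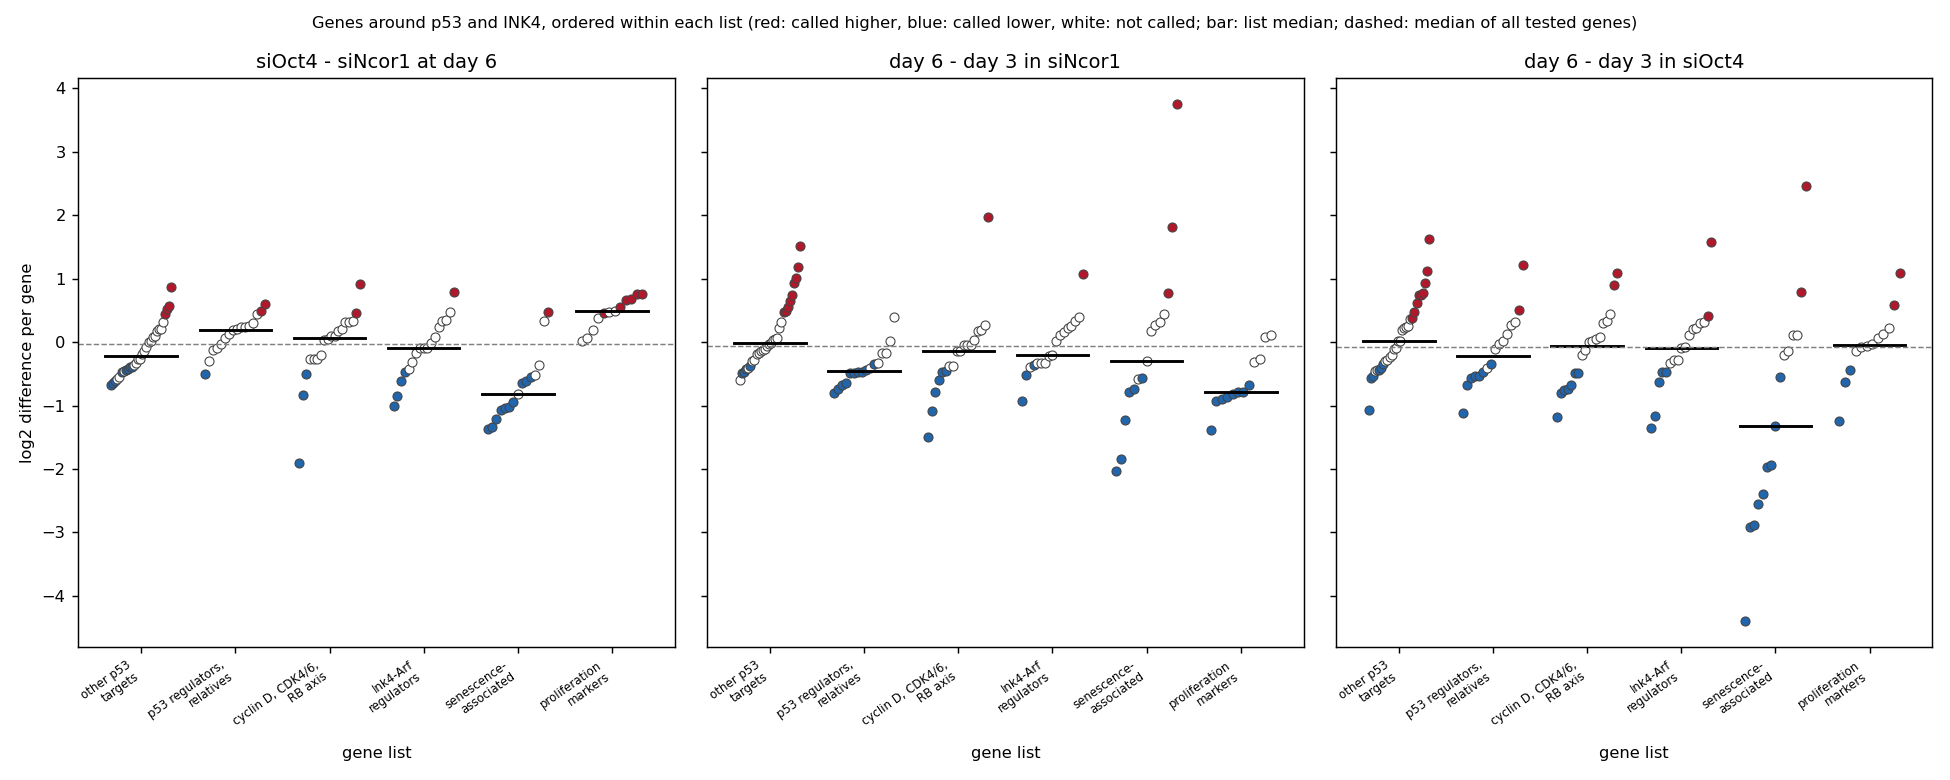
log2 difference of each gene in 6 lists, ordered within a list, for the knockdowns at day 6 and for the days in each knockdown. Red and blue points passed the test, white points did not, bars are list medians and the dashed line is the median of all tested genes. At day 6 the senescence-associated genes lie mostly below the line and the proliferation markers above it.

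Of 16 genes that control p53, 10 fell over the days in siNcor1 (62.5%, against 20.9% of all tested genes) and 0 rose. Those labelled siOct4 had 7 that fell (43.8%, against 30.5%), 2 that rose (12.5%, against 22.2%) and 7 that were not called. The checkpoint kinase gene *Atr* (−0.80 ± 0.19, adjusted p = 0.00757) and *Usp7*, whose product deubiquitinates MDM2 and p53 (−0.74 ± 0.13, adjusted p = 0.00149), led the falls in siNcor1, and both also fell in those labelled siOct4 (−0.57 ± 0.19 and −0.68 ± 0.13), where quantile normalization (adjusted p = 0.0683) and totals without *Gm26917* (0.0656) ended the call of *Atr*. In the libraries labelled siOct4, *Hipk2*, a kinase that phosphorylates p53, fell (−1.12 ± 0.14, adjusted p = 4.92e-05), as it did in siNcor1 (−0.47 ± 0.14, or −0.27 and adjusted p = 0.191 with quantile normalization), while the checkpoint kinase gene *Chek1* (1.22 ± 0.19, adjusted p = 0.000209) and *Mdm4*, the relative and partner of *Mdm2* (0.50 ± 0.16, adjusted p = 0.0178), rose. With quantile normalization the falls numbered 5 in siNcor1 and 2 in those labelled siOct4. The interaction was called for *Mdm4* (0.91 ± 0.22, adjusted p = 0.0151), opposite in sign to that of *Mdm2*. At day 6 *Chek1* (0.59 ± 0.19, adjusted p = 0.031) and *Chek2* (0.49 ± 0.16, adjusted p = 0.037) were higher in the libraries labelled siOct4, where *Hipk2* was lower (−0.50 ± 0.14, adjusted p = 0.0178). *Trp63* and *Trp73*, the relatives of p53, were under the filter on low values.

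Of 18 genes of the cyclin D, CDK4/6 and retinoblastoma axis, on which the INK4 proteins act, 1 rose and 6 fell over the days in siNcor1, and 2 rose and 7 fell in the libraries labelled siOct4. The fallers were 33.3% and 38.9% of the list, against 20.9% and 30.5% of all tested genes, and the risers 5.56% and 11.1%, against 13.8% and 22.2%. *Cdkn1c*, the gene of the kinase inhibitor p57, had the pattern of *Cdkn2b* on a larger scale, with a rise in siNcor1 (1.98 ± 0.19, adjusted p = 3.58e-05), a lower level in the libraries labelled siOct4 at day 6 (−1.91 ± 0.19, adjusted p = 0.000196) and an interaction of −1.68 ± 0.27 (adjusted p = 0.00191). *Rb1*, which encodes the retinoblastoma protein, fell under both knockdowns (−1.49 ± 0.13, adjusted p = 1.92e-05 in siNcor1, and −0.68 ± 0.13, adjusted p = 0.00092 for the siOct4 label), as did the INK4 target gene *Cdk6* (−1.08 ± 0.12, adjusted p = 8.04e-05, and −0.80 ± 0.12, adjusted p = 0.000178). *Ccnd2*, which encodes cyclin D2, fell in both too (−0.45 ± 0.15, adjusted p = 0.0346, and −1.18 ± 0.15, adjusted p = 5.96e-05), though in siNcor1 not with totals without *Gm26917* (adjusted p = 0.0639). In the libraries labelled siOct4, *Ccne2* (1.08 ± 0.24, adjusted p = 0.00233) and *E2f2* (0.90 ± 0.21, adjusted p = 0.0037), genes of the step into S phase, rose. At day 6 *Ccne2* was higher (0.91 ± 0.24, adjusted p = 0.0136) and *Ccnd2* lower (−0.83 ± 0.15, adjusted p = 0.00235) in the libraries labelled siOct4.

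Among 17 regulators of the Ink4-Arf locus, which include Polycomb genes that keep the locus silent and factors that activate it, 1 rose and 3 fell over the days in siNcor1, and 2 rose and 5 fell in the libraries labelled siOct4. These fallers were 17.6% and 29.4% of the list, close to the 20.9% and 30.5% of all tested genes, and the risers were 5.88% and 11.8%, against 13.8% and 22.2%. The Polycomb methyltransferase gene *Ezh2* fell in siNcor1 (−0.93 ± 0.17, adjusted p = 0.00175) and in those labelled siOct4 (−0.47 ± 0.17, adjusted p = 0.0366), the latter not under median centring (0.052), quantile normalization (−0.27, adjusted p = 0.183) or totals without *Gm26917* (0.108). *Suz12*, which encodes its partner, fell in siNcor1 (−0.51 ± 0.12, adjusted p = 0.00847), a call that quantile normalization ended (0.0548). *Cbx7*, of Polycomb complex PRC1, rose under both knockdowns (1.07 ± 0.20, adjusted p = 0.00219 in siNcor1, and 1.58 ± 0.20, adjusted p = 6.78e-05, in the libraries labelled siOct4). *Ets1*, which encodes an activator of p16INK4a, and *Tbx3*, which encodes a repressor of p19ARF, were lower at day 6 in the libraries labelled siOct4 (−0.85 ± 0.13, adjusted p = 0.000857, and −1.0 ± 0.16, adjusted p = 0.00117), and *Cbx2* was higher (0.78 ± 0.19, adjusted p = 0.00981).

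Of 15 senescence-associated genes, 10 were lower at day 6 in the libraries labelled siOct4 (66.7%, against 18.6% of all tested genes), 1 was higher and 4 were not called, with a median of −0.82 beside −0.03 for all tested genes. *Igfbp3* was among those lower (−1.34 ± 0.15, adjusted p = 0.000307), and *Lmnb1*, the lamin B1 gene that is lost in senescence, was the one higher (0.48 ± 0.14, adjusted p = 0.022). At day 3 the order was the other way for 3 of the 15, with the higher level in the libraries labelled siOct4. Among them were *Ccl2* (1.34 ± 0.20, adjusted p = 0.0088) and *Igfbp5* (0.71). These were 20% of the list, where 1.07% of all tested genes were called in either direction. The difference was positive for 11 of the 15, with a median of 0.46 beside −0.02 for all tested genes. Over the days, 3 rose and 6 fell in siNcor1 and 2 rose and 9 fell in the libraries labelled siOct4. The fallers were 40% and 60% of the list, against 20.9% and 30.5% of all tested genes, and the risers 20% and 13.3%, against 13.8% and 22.2%. The protease gene *Mmp3* rose in both (3.75 ± 0.30, adjusted p = 1.45e-05, and 2.46 ± 0.30, adjusted p = 4.4e-05), and *Igfbp3* rose in siNcor1 (1.81 ± 0.15, adjusted p = 1.77e-05). Many of these genes encode secreted proteins that fibroblasts make without senescence. Of the 10 fibroblast markers, 7 were also lower at day 6 in the libraries labelled siOct4 (70%, against 18.6% of all tested genes). Over the days in siNcor1, 6 of them rose (60%, against 13.8%). The part of these in the result was not tested.

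Of 12 proliferation markers, 8 fell over the days in siNcor1 (66.7%, against 20.9% of all tested genes), led by *Mki67* (−1.39 ± 0.14, adjusted p = 4.44e-05) and *Top2a* (−0.93 ± 0.14, adjusted p = 0.000601), and 3 fell (25%, against 30.5%) and 2 rose (16.7%, against 22.2%) in the libraries labelled siOct4, *Mki67* (−1.24 ± 0.14) and *Top2a* (−0.63 ± 0.14) among the fallers. At day 6, 6 of the 12 were higher in the libraries labelled siOct4 (50%, against 12.1%) and the other 6 were not called, with *Pcna*, which is also a p53 target (0.76 ± 0.14, adjusted p = 0.00301), and *Cdc20* (0.75 ± 0.12, adjusted p = 0.00149) the highest. The summed level of the 12 was 1000 to 1070 CPM at day 6 in siNcor1 and 1280 to 1460 CPM in those labelled siOct4, and 1510 to 1850 CPM over all day 3 libraries. *Cdkn1a*, *Cdkn2b* and *Cdkn1c* were at their highest of the 4 groups in the siNcor1 libraries of day 6. The summed proliferation markers were at their lowest there. Not all kinase inhibitor genes went this way. *Cdkn2a* also had its highest mean in that group (6.72 log2 CPM), but it rose under both knockdowns. In the libraries labelled siOct4 of day 6 its mean was 6.52, and the difference at day 6 was not called. *Cdkn2c* fell over the days in siNcor1 (−0.59 ± 0.19, adjusted p = 0.0281) and in the libraries labelled siOct4 (−0.73 ± 0.19, adjusted p = 0.00595). In siNcor1 *Cdkn1b* (−0.14) and *Cdkn2d* (0.27) were not called. A link between the inhibitors and the markers was not tested.

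The genes whose log2 CPM followed the members most closely over the 8 libraries were, for *Cdkn2a*, *Clec2f* (Pearson r = 0.998), the pluripotency gene *Nanog* (0.995) and *Fam117a* (0.994). For *Cdkn2b* they were *Cat*, the catalase gene (0.986), and the lysosomal protease genes *Ctsf* (0.985) and *Ctsd* (0.984). They were *Abhd4* (0.986), *Chmp4b* (0.98) and *Usp29* (0.975) for *Cdkn1a*, and *Ttll5* (0.995) and *Cops8* (0.991) for *Trp53*. These are descriptions over 8 libraries that share 4 groups, picked as the highest of 13866 genes, and carry no test.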

How the data were processed

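RNA-seq libraries of total RNA depleted of ribosomal RNA were sequenced as paired reads of 43 bp, 2 from each of 4 groups (siRNA pool and day, from the sample labels). Alignment by the authors was to mm10 (STAR 2.5.2b), and the deposited values are log2-cpm (edgeR 3.20.9), 1 value per gene and library. The counting tool, the gene annotation and the strand setting are not given in the sources used here. After a constant was subtracted on the linear scale, 100% of values were whole multiples of 1 read (tolerance 0.1 read), which gave the reads on genes, 7735742 to 16445192 per library. 3 reads are 0.174 to 0.380 CPM, and counts cover counting error only. The spread between the replicates of a group exceeded that of counting (chi-square 9.48 to 21.3 times its degrees of freedom). The labels call them biological replicates without naming the cultures, so the spread between them may in part be technical.

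The 13866 of 18990 genes whose mean reached 1 CPM were tested with limma 3.58.1 in R 4.3.3 (lmFit and eBayes with a trend), with the 4 groups in 1 fit and two-sided p-values adjusted by Benjamini-Hochberg over all tested genes at 0.05. The script was tested on simulated data with known changes, with a single spread setting for all genes. That test does not show how the calls fare at the spread of these replicates. The alternatives were other scalings, filters and pseudocounts, no trend, the replicate block, limma-voom on the recovered reads, only the groups compared and leaving out each library. Levels per kb used exon lengths of GENCODE M21 (GRCm38). Sequences came from RefSeq (GRCm38.p6). Plots were made with matplotlib 3.10.9.

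The 10 genes and all gene lists were chosen with earlier results of these data known. From each list the text names, per comparison, called genes with the largest log2 difference, up to 2 in each direction, and for *Trp53*, *Cdkn1a*, *Cdkn2a* and *Cdkn2b* the 3 genes with the highest correlation. Some genes that this rule names are not reported here. *Bax*, *Ppm1d* and *Igfbp5* at days where the rule does not name them were added after their values were seen. So were *Cdkn1b*, *Cdkn2c* and *Cdkn2d*. Published tests against non-targeting controls were not repeated here.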

Additional observations from a re-analysis of the deposited data

Results flagged for a closer look

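For 3 of the 10 genes the difference between the knockdowns changed from day 3 to day 6 by the interaction term of the limma fit, which is what singled them out. The log2 difference between the libraries labelled siOct4 and siNcor1 moved by −0.86 for *Cdkn2b* (95% interval −1.30 to −0.41, adjusted p = 0.0133), from 0.10 at day 3 to −0.75 at day 6. For *Cdkn1a* it moved by −0.66 (95% interval −1.03 to −0.29, adjusted p = 0.0196), from 0.17 to −0.49. For *Mdm2* it moved by −0.57 (95% interval −0.97 to −0.16, adjusted p = 0.0499), from 0.08 to −0.49. With 2 libraries a group, no library could be tested as standing apart from its group. The wider replicate gaps were those of *Trp53inp1* (6.96 and 7.72 log2 CPM) and *Ccng1* (9.26 and 9.92 log2 CPM) in the libraries labelled siOct4 of day 6.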

How the results depend on the processing

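Each of the 10 genes was tested in 5 comparisons, 50 results in all, under 18 or 19 alternatives each. Of the 22 results called, 6 were called in every alternative (the rises of *Cdkn2a* under both knockdowns, that of *Cdkn2b* in siNcor1 and its lower level at day 6 in the libraries labelled siOct4, and those of *Bbc3* and *Sesn2* in the libraries labelled siOct4), and 0 changed sign. Of the results not called, 4 passed the test in some alternative. Without the variance trend the counts of called genes among the 10 were 2 in place of 5 for the knockdowns at day 6, 4 in place of 8 for the days in siNcor1 and 1 in place of 3 for the interaction, and over all tested genes 43 in place of 148 at day 3, where a mean of at least 10 CPM left 81 called. With only the compared groups fitted, 1 gene (*Trp53inp1*) was called at day 3 and 3 at day 6. Leaving out each library in turn gave 0 to 1 of the 10 at day 3, 1 to 5 at day 6, 2 to 8 for the days in siNcor1, 3 to 6 for those labelled siOct4 and 0 to 4 for the interaction. Over all tested genes it gave 3 to 375 at day 3 (the 3 without either siNcor1 library of that day), 1398 to 4669 at day 6, 2360 to 5954 for the days in siNcor1 and 1009 to 3667 for the interaction. The lowest of these later counts came without siNcor1 replicate 2 of day 6, of day 3 and of day 3. Fewer libraries and a wider spread estimate are part of how these alternatives are built. The genes that changed sign were not called. In the libraries labelled siOct4, *Cdkn2b* over the days was 0.053, 0.18 and 0.12 and *Ccng1* was 0.028 and 0.094 on the log2 scale under median centring, quantile normalization (*Cdkn2b* alone) and totals without *Gm26917*, and without 1 library they ran from −0.089 to 0.052 and from −0.38 to 0.29. Without 1 library the day 3 differences ran from −0.10 to 0.31 for *Cdkn2b* and from −0.22 to 0.051 for *Ccng1*, the day 6 differences from −0.066 to 0.13 for *Trp53*, from −0.21 to 0.46 for *Ccng1* and from −0.19 to 0.066 for *Sesn2*, and the interactions from −0.16 to 0.034 for *Trp53*, from −0.13 to 0.54 for *Ccng1*, from −0.087 to 0.13 for *Phlda3* and from −0.59 to 0.17 for *Trp53inp1*. The share of called genes that were higher was 42.1% for the days in the libraries labelled siOct4 and 52.5% with totals without *Gm26917*, and 35.1% at day 3 and 55.1% with limma-voom. The cause of the other moves was not tested.

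Replicate numbers are shared by the 4 groups, but nothing in the labels says that a number marks the same cells. Deviations of same-numbered libraries correlated by −0.04 to 0.28, and a fit with a block for these numbers called 0, 5, 8, 6 and 4 of the 10 genes in the comparisons (knockdowns at day 3 and day 6, days in siNcor1 and under the siOct4 label, interaction), with *Bbc3* (adjusted p = 0.02) added to the interaction and no other call changed. Over all tested genes the block gave 222, 4698, 5218, 7570 and 3395 calls in place of 148, 4251, 4819, 7312 and 2867.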
